A study of Mus musculus with 4 samples.

Results

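The expression of 5 regulators of G protein signalling (RGS) was followed in CD4 T cells isolated during murine graft-versus-host disease (GVHD). The genes are Rgs1, Rgs2, Rgs3, Rgs10 and Rgs16, 5 of the 31053 genes in the expression matrices and 5 of the 21 RGS genes measured. They were taken as a fixed list of genes and read in both expression libraries. Cells came from BALB/c mice that lack RAG2 and carry the TS1 T cell receptor transgene (BALB/c RAG2-/- TS1 Tg), so every library shares that deletion and that transgene. At 4 weeks after transplantation they were sorted from spleen, from colon, from skin and from the small intestine, the last as intraepithelial lymphocytes and as lamina propria lymphocytes. The cells of the 5 compartments were tagged with hashing antibodies and pooled, and 1 expression library was made for each of 2 replicates by droplet sequencing (10x Genomics 3' chemistry), in which each transcript is counted by a unique molecular identifier (UMI). The feature lists of the 4 libraries analysed, 2 for expression and 2 for hashtags, hold 0 hashtag features, so no cell could be given a tissue. Spleen was strained without enzyme, whereas colon, lamina propria and skin were digested, per the labels' protocols. No untreated mice enter the comparisons, and the labels leave unsaid whether the replicates are separate mice. The p-values measure only how the difference between classes varies between these 2 libraries, with a spread borrowed across genes. They do not measure a spread between mice.

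RGS proteins switch off signals from G protein coupled receptors: they bind an active G alpha subunit and speed its hydrolysis of GTP. In T cells the receptors concerned include those for chemokines and sphingosine 1-phosphate, which signal through Gi and steer cells into, within and out of tissues. Rgs1 and Rgs16 act on Gi-coupled chemokine receptor signals, Rgs2 prefers Gq, Rgs3 acts on Gi and Gq, and Rgs10 is a small member that acts mainly on Gi.

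Of the 5 genes, 3 lie on mouse chromosome 1 (mm10). Rgs2 occupies chr1:143999338-144004161 and Rgs1 chr1:144242296-144249242, both on the minus strand and 238 kb apart with Rgs13 between them, while Rgs16 lies at chr1:153740349-153745468 on the plus strand. Rgs3 lies at chr4:62559847-62704001 on the plus strand and Rgs10 at chr7:128373621-128418758 on the minus strand. Rgs16 and Rgs3 overlap a gene on the other strand (Gm28513 and Gm11209). Rgs10 overlaps a gene on its own strand (Gm15503), so reads there may belong to either gene. The promoters of Rgs2 and Rgs16 are shown because these genes fell together in 1 comparison and rose together in another, and that of Rgs10 because it moved the other way in the first. Each is 250 bases upstream of the start in RefSeq (GRCm38.p6), written 5' to 3' on the gene's strand, with capitals marking matches to the motifs named below the sequences. Rgs2 is chr1:144004150-144004399 (minus), Rgs16 is chr1:153740103-153740352 (plus) and Rgs10 is chr7:128418173-128418422 (minus).
Rgs2: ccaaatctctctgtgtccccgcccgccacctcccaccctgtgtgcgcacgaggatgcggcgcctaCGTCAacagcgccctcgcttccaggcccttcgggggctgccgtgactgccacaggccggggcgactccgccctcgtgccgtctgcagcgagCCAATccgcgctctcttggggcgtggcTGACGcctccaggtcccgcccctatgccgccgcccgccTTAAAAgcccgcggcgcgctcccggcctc
Rgs16: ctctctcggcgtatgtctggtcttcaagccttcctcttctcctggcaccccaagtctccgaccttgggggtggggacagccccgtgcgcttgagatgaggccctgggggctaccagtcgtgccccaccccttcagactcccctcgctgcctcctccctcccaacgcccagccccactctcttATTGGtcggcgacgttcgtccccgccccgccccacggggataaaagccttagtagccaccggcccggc
Rgs10: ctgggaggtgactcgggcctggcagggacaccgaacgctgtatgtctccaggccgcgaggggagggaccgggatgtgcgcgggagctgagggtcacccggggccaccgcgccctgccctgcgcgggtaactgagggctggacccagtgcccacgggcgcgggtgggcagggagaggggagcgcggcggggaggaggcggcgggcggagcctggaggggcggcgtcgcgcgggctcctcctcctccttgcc

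The search covered 7 motifs: the cAMP response element core TGACG, its full form TGACGTCA, the AP-1 site TGANTCA, the NFAT core GGAAA and the CCAAT box on both strands, and TATAAA and TTAAAA on the gene's strand only. TGACG is part of TGACGTCA. The Rgs2 promoter held TGACG at 67 and at 185 bases before the start, CCAAT at 94 and TTAAAA at 29. Of 32851 promoters of the same length, 17.8% held TGACG, 33.8% CCAAT and 10.95% TTAAAA. The Rgs16 promoter held CCAAT alone, at 68 bases before the start on the reverse strand, and the Rgs10 promoter, with 76.4% G and C, held none of the 7. A match is a run of letters, not a shown binding site.

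In all, 19020 cells of replicate 1 and 15898 of replicate 2 had at least 1000 UMIs, 500 genes and at most 10% mitochondrial UMIs, with a median of 2688 and 3699 UMIs. Clusters named for epithelial, erythroid, neutrophil, myeloid and basophil or mast cells were set aside, which left 18493 and 15658 T cells. Of these, 14895 and 14635 reached 1500 UMIs and were thinned to that depth for every share and test. Cd3e and Trbc2, parts of the T cell receptor complex, had a UMI in 93.2% and 98.7% of the thinned cells (means of the replicates). Cd4, the gene of the sort, had a UMI in 25.7%, and Cd8a, the CD8 alpha chain, in 31.4%. The replicates shared 599 barcodes, where 44.5 would be shared at random. A cluster led by Abhd2, Actb and Notch2 held 5443 cells of replicate 1 against 194 of replicate 2, and its cells had a median of 1473 UMIs.

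Rgs1 was the most abundant member in CPM, its counts scaled to a common library total, which are not divided by gene length because 3' sequencing counts each captured transcript once. Over all UMIs of T cells it stood at 946 CPM in replicate 1 and 1145 CPM in replicate 2, a mean of 1046 ± 141 (SD, n = 2). Rgs10 and Rgs16 followed at 106 ± 2.1 and 105 ± 7.4 CPM, Rgs3 at 87.8 ± 5.6 and Rgs2 at 48.6 ± 0.68. Rgs10, Rgs16 and Rgs3 thus lay close together, and the libraries of Rgs10 (104.6 and 107.6) fell inside the range of those of Rgs16 (100.01 and 110.5). Among the other 16 RGS genes, Rgs19 (56.0 CPM) lay between Rgs3 and Rgs2 and Rgs14 (39.2 CPM) came next. Rgs12, Rgs9 and Rgs11 had means of 2.87, 2.00 and 1.79 CPM, and Rgs4, Rgs7, Rgs17, Rgs20 and Rgs21 had 0 UMIs.

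At 1500 UMIs per cell, Rgs1 had a UMI in 60.4% of T cells in replicate 1 (exact 95% interval 59.6 to 61.2%) and in 63.1% in replicate 2. Rgs10 was found in 14.2% in both replicates, Rgs3 in 12.3% and 13.4%, Rgs16 in 10.5% and 11.5%, and Rgs2 in 6.47% and 6.79%. Intervals cover counting error only. Among 102 epithelial cells at the same depth, Rgs1 had a UMI in 32.4%, Rgs10 in 9.80%, Rgs3 in 4.90% and Rgs16 and Rgs2 in 0.98% each. Of those epithelial cells 54.9% also had a UMI of Cd3e, a T cell gene. The T cell shares of Rgs16 and Rgs2 lay above the upper bound of the epithelial interval, 5.34%, whereas that of Rgs10 lay inside its interval of 4.80 to 17.3% and is not told apart from background by detection alone. The epithelial cells had a median of 2799.5 UMIs before thinning. In barcodes with fewer than 100 UMIs, taken as free RNA, Rgs1 stood at 765 and 844 CPM, below the T cells in both replicates. For the other 4 members the T cell level was 0.92 to 1.15 times that in these barcodes. Genes that T cells express had similar ratios in replicates 1 and 2: Cd3d 1.007 and 1.005, Trbc1 0.804 and 0.853, Cd4 0.888 and 1.012. Other genes of the T cell receptor complex lay higher: Trbc2 1.096 and 1.066, Cd3e 1.41 and 1.31, Trac 1.46 and 1.39. A ratio near 1 therefore cannot tell expression in T cells from free RNA. Basophil or mast cells, at 78 cells, had an Rgs1 UMI in 73.1%. The share was 81.4% of 59 cells in replicate 1 and 47.4% of 19 in replicate 2. Of the 78 cells, 62.8% also had a Cd3e UMI, and the part of T cell RNA in the Rgs1 share was not tested.

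Cells with several members were few. Without any member were 25.5% and 23.7% of T cells, with exactly 1 were 49.5% and 48.9%, and with 2 were 20.9% and 22.7%. All 5 were found together in 0 cells of replicate 1 and 1 cell of replicate 2. Rgs1 was also the member with most UMIs where it was found: 4.69 and 6.88 per detecting cell before thinning, against 2.14 and 2.41 for Rgs16 and 1.29 to 1.59 for the other 3. Rgs2 and Rgs16 shared cells more often than the product of their shares: 150 cells against 101.5 in replicate 1 (ratio 1.48) and 144 against 113.7 in replicate 2 (ratio 1.27). Taken within clusters, the ratios were 1.24 and 1.05, the second with a counting interval of 0.89 to 1.24. Rgs10 and Rgs16 met less often, with ratios of 0.82 and 0.90, the second with a counting interval of 0.79 to 1.03. Rgs1 and Rgs10 met slightly more often (1.08 in both). Within clusters the ratios were 0.89 and 0.96 for Rgs10 with Rgs16 and 1.03 and 1.01 for Rgs1 with Rgs10. All of these within-cluster intervals included 1.

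T cells were then split by the genes that mark their states, and counts were summed per replicate and class. The splits used Tcf7, a transcription factor of progenitor-like T cells; Itgae (CD103, which binds epithelial E-cadherin) together with Cd8a; the cytokine gene Il10; the chemokine gene Xcl1; and Il13 or Csf2, the genes of interleukin 13 and GM-CSF. A cell without a UMI of such a gene may still express it. The classes also may differ in tissue of origin, which cannot be told apart from the class itself. Each split was tested with edgeR's quasi-likelihood test on 4 sums with the replicate as a block, a fit with 1 residual degree of freedom that borrows the spread across genes, and a gene was called at a Benjamini-Hochberg adjusted p under 0.05 over all genes tested.

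Cells with Itgae and Cd8a numbered 2309 in replicate 1 and 2271 in replicate 2. Rgs16 and Rgs2 fell in them, each by more than it changed in any other split, and Rgs1 and Rgs10 rose. Rgs16 stood at 34.6 and 31.1 CPM in these cells against 118.6 and 131.8 in all others. Both libraries of the class lay below both of the rest, and the log2 fold change was -1.90 ± 0.088 (SE; edgeR adjusted p = 1.16e-99). Rgs2 stood at 22.8 and 26.7 CPM against 54.6 and 57.4, a log2 fold change of -1.15 ± 0.11 (edgeR adjusted p = 1.55e-23). Rgs1 stood at 1290 and 1539 CPM against 901 and 1061, a log2 fold change of 0.55 ± 0.038 (edgeR adjusted p = 8.63e-47). Rgs10 stood at 145.5 and 136.8 CPM against 101.4 and 104.0, a log2 fold change of 0.48 ± 0.062 (edgeR adjusted p = 1.13e-13). Groups did not overlap for Rgs2, Rgs1 and Rgs10 either. The share of all genes without overlap is not given, so non-overlap, here and in the splits below, only describes the values. Rgs3, at 95.9 and 102.7 CPM against 88.7 and 98.4, overlapped and did not pass (edgeR adjusted p = 0.21). The 4 members called are to be read against 33.6% of 11099 genes called in this split.

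With Cd8a alone as the split, Rgs2 changed by -1.04 and Rgs16 by -1.45 on the log2 scale, and with Itgae alone by -0.34 and -1.20 (all past the threshold in edgeR). In classes that separate the genes, Rgs2 had 69.1 ± 3.6 CPM in cells with Itgae but no Cd8a UMI, 33.7 ± 0.60 with Cd8a but no Itgae, 24.8 ± 2.8 with both and 59.7 ± 2.4 with neither (SD, n = 2). Rgs2 was thus low in both Cd8a classes, and in both replicates its level with Itgae but no Cd8a was above that with neither, a difference that was not tested. For Rgs16 the same 4 classes had 90.7 ± 4.7, 66.5 ± 0.25, 32.9 ± 2.5 and 147 ± 9.5 CPM, lowest with both genes. Rgs10 was highest in the Itgae classes, at 146 ± 14 without and 141 ± 6.2 with Cd8a, and these overlapped. Rgs1 stood at 1297 ± 278, 1175 ± 178, 1414 ± 176 and 874 ± 77 CPM in that order. Beside these values, summed epithelial markers in cells with Itgae and Cd8a were 156 and 131 CPM against 66.6 and 72.6 in the rest, with 3 and 2 of 19 markers at 0. Summed erythroid markers were 297 against 55.9 CPM in replicate 2 but 28.6 against 45.5 in replicate 1, NK cell markers were lower (107 and 85.7 against 217 and 211), and the part of these sets in the member changes was not tested. The median depth before thinning was 3618 and 4379 UMIs with the pair against 3055 and 3724.

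Cells with an Il10 UMI numbered 610 and 722, and Rgs16 rose in them while Rgs10 fell. Rgs16 stood at 219.7 and 225.3 CPM against 100.7 and 110.5 in cells without, a log2 fold change of 1.14 ± 0.084 (edgeR adjusted p = 3.03e-39). Its share of cells was 19.3% and 22.7% against 10.2% and 10.9%. Rgs10 stood at 69.9 and 65.6 CPM against 109.9 and 111.4, a log2 fold change of -0.64 ± 0.12 (edgeR adjusted p = 4.44e-06). Neither gene's groups overlapped. The Rgs10 call was lost without the cluster led by Il10 (-0.53, edgeR adjusted p = 0.11) and, at -0.38, against cells with none of the 7 split genes. Rgs1 was also called, at 0.19 ± 0.045 on the log2 scale (edgeR adjusted p = 0.00052), but its values, 1121 and 1160 CPM against 955 and 1134, lay close together in replicate 2. Replicate 1 alone gave 0.29 and replicate 2 alone 0.11, and the call was lost with DESeq2, without the replicate block and without the cluster led by Il10. Rgs3 was not called. Rgs2, at -0.34 ± 0.16, was not called either (edgeR adjusted p = 0.25) but passed at a depth of 1000 UMIs (-1.06), without thinning (-0.40) and against cells with none of the 7 genes (-0.50). The 3 members called stand beside 6.75% of 11249 genes. Summed B or plasma cell markers were 61.2 and 70.2 CPM in the Il10 cells against 30.6 and 34.1, with 7 and 8 of 10 at 0, and the immunoglobulin gene Igkc was among the leading genes of the Il10 cluster; their part was not tested.

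Cells with an Xcl1 UMI numbered 583 and 628 and differed in 2 members: Rgs16 rose and Rgs1 fell. Rgs16 stood at 228.7 and 262.2 CPM against 100.6 and 109.6, a log2 fold change of 1.22 ± 0.087 (edgeR adjusted p = 6.82e-41). Groups did not overlap, and 19.0% and 21.5% of the Xcl1 cells had an Rgs16 UMI against 10.19% and 11.002%. Rgs1 stood at 823 and 981 CPM against 967 and 1142, a log2 fold change of -0.23 ± 0.056 (edgeR adjusted p = 0.0042), and its groups overlapped between replicates. The share of cells with an Rgs1 UMI was 60.7% and 58.3% against 60.4% and 63.3%, and UMIs per detecting cell were 2.03 and 2.52 against 2.40 and 2.70, so only the second was lower in both replicates. That call was lost with DESeq2, without the replicate block, without proliferating clusters and without the highest doublet scores, and the value was 0.02 against cells with none of the 7 split genes. Rgs10 had equal levels in both classes, 108.6 and 109.3 against 108.3 and 109.1 CPM, with a log2 difference of 0.00 ± 0.11. The 2 members called stand beside 1.98% of 11324 genes. Summed markers of NK cells, which also make Xcl1, were 262 and 309 CPM against 197 and 187, with 2 and 3 of 8 markers at 0 in the Xcl1 cells, and their part was not tested.

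Cells with an Il13 or a Csf2 UMI, 1653 and 1382 in number, had more Rgs2 and Rgs16 and less Rgs1. Rgs2 stood at 78.6 and 90.7 CPM against 46.0 and 48.7, a log2 fold change of 0.87 ± 0.094 (edgeR adjusted p = 2.88e-14). Rgs16 stood at 181.9 and 187.2 CPM against 96.1 and 108.8, a log2 fold change of 0.89 ± 0.073 (edgeR adjusted p = 1.89e-21). Both genes were higher in the class in both libraries, with no overlap. Rgs1 stood at 770 and 953 CPM against 985 and 1154, a log2 fold change of -0.28 ± 0.057 (edgeR adjusted p = 3.54e-05). Its call was lost without the replicate block, at a depth of 1000 UMIs, without the clusters led by Il13 or Csf2, with Il13 alone as the split, and, at -0.03, against cells with none of the 7 genes. Rgs2 also lost its call without the led clusters (0.46 ± 0.14, edgeR adjusted p = 0.069). Cells with both cytokine genes, 192 and 161 in number, had 294 ± 23 CPM of Rgs16, above the 160 ± 22 in cells with Il13 but no Csf2 and the 174 ± 8.2 in cells with Csf2 but no Il13. The 3 members called stand beside 18.1% of 11254 genes. Summed basophil or mast cell markers were 62.1 and 70.9 CPM against 25.4 and 29.1, with 2 and 5 of 11 at 0, and summed NK cell markers 268 and 263 against 191 and 184, with 2 of 8 at 0 in both, and the part of either set was not tested.

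Cells with a Tcf7 UMI, 904 and 871 in number, had less Rgs1 and Rgs16. Rgs1 stood at 672 and 784 CPM against 980 and 1157, a log2 fold change of -0.57 ± 0.038 (edgeR adjusted p = 1.29e-46), with the same size in each replicate (-0.56 and -0.58). Rgs1 had a UMI in 48.5% and 52.2% of these cells against 61.2% and 63.8%. Rgs16 stood at 80.4 and 83.4 CPM against 107.2 and 118.2, a log2 fold change of -0.48 ± 0.098 (edgeR adjusted p = 4.14e-05). Its call was lost with DESeq2, at a depth of 1000 UMIs and without the cluster led by Tcf7. Rgs10 was called at -0.33 ± 0.096 (edgeR adjusted p = 0.0088), but the change lay in 1 library: 72.7 against 111.4 CPM in replicate 2 and 103.2 against 108.6 in replicate 1, or -0.63 and -0.09 on the log2 scale. The call was lost under 8 of the alternatives tried, with -0.04 without thinning. Rgs2 went opposite ways in the replicates (-0.10 and 0.40) and was not called, though it was without thinning (0.25) and without the cluster led by Tcf7 (0.44). The 3 members called stand beside 8.76% of 11122 genes. Cells of proliferating clusters made up 5.86% and 3.79% of the Tcf7 cells against 11.3% and 10.2% of the rest, and without those clusters the log2 fold changes were -0.62 for Rgs1 and -0.53 for Rgs16. Summed B or plasma cell markers were 53.1 and 58.9 CPM against 30.5 and 34.4, with 5 and 7 of 10 at 0, and their part was not tested.

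**Figure D1:**
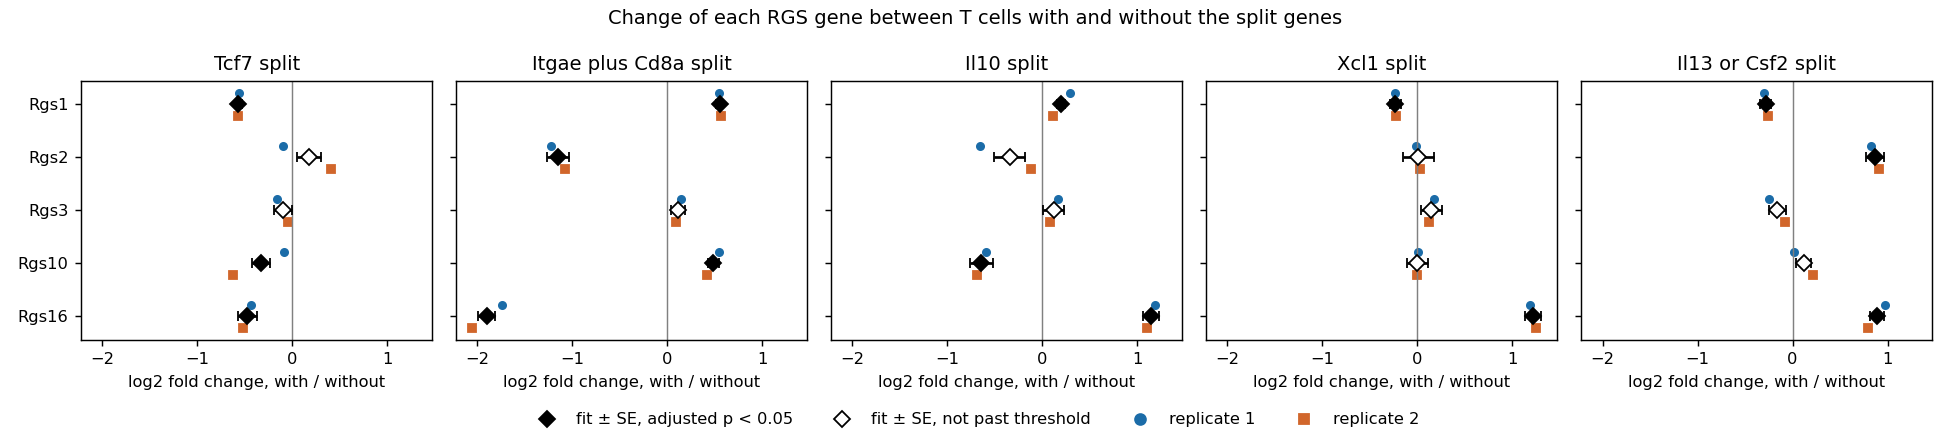
Log2 fold change (horizontal axis) of each RGS gene between T cells with and without the genes of a split, 1 panel per split. Diamonds are the edgeR fit with its SE, filled where the adjusted p passed 0.05, and circles and squares are replicates 1 and 2 alone. Rgs16 has the widest span, from -1.90 with Itgae plus Cd8a to 1.22 with Xcl1, and no Rgs3 diamond is filled.

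The splits share cells, so a further fit used cells in exactly 1 of the 5 states, and cells in none, as 12 sums with 5 residual degrees of freedom over 8700 genes. This gave a direct test of each difference between states. Of the 50 tests of 5 members in 10 contrasts, 32 passed. The members called numbered 5 between Il13 or Csf2 and Itgae plus Cd8a, where 37.6% of all genes were called. They numbered 4 for Itgae plus Cd8a against Tcf7 (26.5% of all genes), Il10 (22%) and Xcl1 (18%), and 4 for Il13 or Csf2 against Il10 (16.2%) and Tcf7 (15%). Rgs1 and Rgs16 alone were called for Tcf7 against Il10 (7.87%) and Xcl1 (4.31%), Rgs2 and Rgs16 for Il13 or Csf2 against Xcl1 (7.55%), and Rgs1 for Xcl1 against Il10 (3.7%).

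Rgs16 was highest in 2 states. Xcl1 cells had 228 and 257 CPM and Il10 cells 231 and 224, and the difference between them was 0.04 ± 0.12 on the log2 scale (edgeR adjusted p = 0.94). Il13 or Csf2 cells followed at 175 and 174 CPM, below Xcl1 by -0.44 ± 0.11 and below Il10 by -0.40 ± 0.10. Cells in no state had 100 and 115 CPM, Tcf7 cells 72.4 and 79.0, and Itgae plus Cd8a cells 29.9 and 25.6. From Itgae plus Cd8a to Xcl1 the log2 difference was 3.11 ± 0.14 (edgeR adjusted p = 4.33e-36), the largest of any member. Only 10 and 29 cells had both Il10 and Xcl1 UMIs. At this depth Il10 was found in only 610 and 722 cells and Xcl1 in 583 and 628. The small overlap therefore cannot show whether the 2 high states are separate.

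Rgs1 took another order. It was highest in Itgae plus Cd8a cells, at 1333 and 1523 CPM, followed by Il10 cells at 1133 and 1152, cells in no state at 937 and 1109, Xcl1 cells at 821 and 964, Il13 or Csf2 cells at 746 and 902, and Tcf7 cells at 611 and 720. From Tcf7 to Itgae plus Cd8a the log2 difference was 1.15 ± 0.055 (edgeR adjusted p = 8.25e-35). Xcl1 and Il13 or Csf2 cells were not told apart (-0.09 ± 0.064, edgeR adjusted p = 0.52), and neither were Xcl1 cells and cells in no state (edgeR adjusted p = 0.14, where 1.36% of genes were called and Rgs16 was the 1 member among them). Rgs1 was thus the highest, and Rgs16 the lowest, in the same class of cells.

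Rgs2 was high in a single state. Il13 or Csf2 cells had 87.0 and 91.8 CPM, above Tcf7 cells (44.0 and 61.7), cells in no state (52.0 and 53.3), Xcl1 cells (53.1 and 50.8), Il10 cells (30.7 and 43.6) and Itgae plus Cd8a cells (22.8 and 25.6). The log2 difference between Il13 or Csf2 and Itgae plus Cd8a was 1.90 ± 0.14 (edgeR adjusted p = 3.55e-22). Over Xcl1 cells, which had more Rgs16 than the Il13 or Csf2 cells, the Rgs2 level of the latter was higher by 0.82 ± 0.19 on the log2 scale (edgeR adjusted p = 0.0011). No pair among Tcf7, Il10 and Xcl1 passed for Rgs2. The difference of Il10 from Itgae plus Cd8a (0.68 ± 0.23, edgeR adjusted p = 0.020) became -0.12 ± 0.32 at a depth of 1000 UMIs and was lost with a second random thinning and without the low-count filter.

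Rgs10 was highest in Itgae plus Cd8a cells (149 and 137 CPM), then in Il13 or Csf2 cells (103 and 126), Xcl1 cells (104 and 109) and cells in no state (103 and 107), and lowest in Tcf7 (98.1 and 66.5) and Il10 cells (66.8 and 69.4). Il10 cells lay below Itgae plus Cd8a cells by -1.02 ± 0.14 (edgeR adjusted p = 3.63e-09). Il10 and Tcf7 cells were not told apart. Rgs3 ranged from 72.5 and 88.0 CPM in Il13 or Csf2 cells to 100.8 and 110.9 in Xcl1 cells, and its 1 call of the 10 was Il13 or Csf2 against Itgae plus Cd8a (-0.30 ± 0.11, edgeR adjusted p = 0.017). Against cells in no state, 2 members were called for Tcf7 (7.07% of genes), 4 for Itgae plus Cd8a (33.8%), 3 for Il10 (7.59%) and 3 for Il13 or Csf2 (19%).

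**Figure D2:**
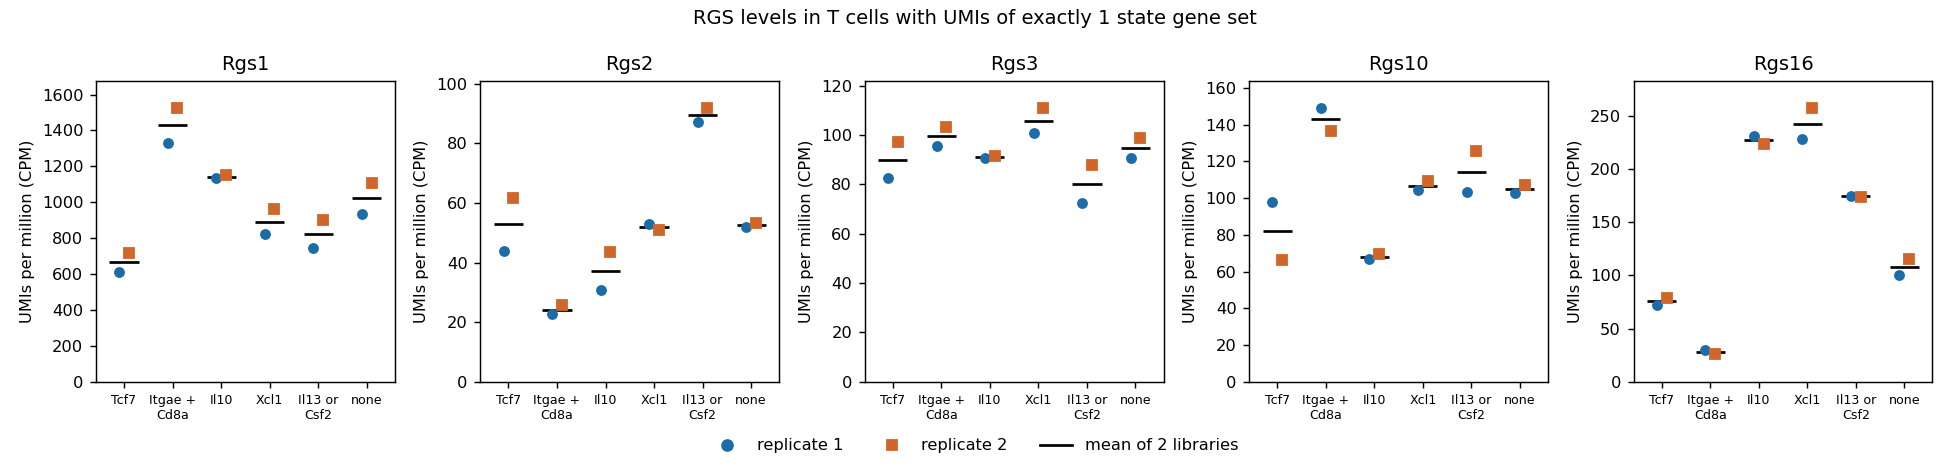
Level of each RGS gene (vertical axis, CPM, starting at 0) in T cells of exactly 1 state or of none, 1 panel per gene. Circles and squares are replicates 1 and 2, and bars are their mean. Rgs16 is high in Il10 and Xcl1 cells and lowest in Itgae plus Cd8a cells, where Rgs1 and Rgs10 are highest.

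The make-up of the cells also shifted with the number of UMIs of a member. Among T cells without an Rgs1 UMI, 10.1% and 9.39% had Itgae and Cd8a, and among cells with 5 or more Rgs1 UMIs 22.9% and 22.8% did. Tcf7 cells went from 7.90% and 7.71% to 3.25% and 3.29% over the same steps. For Rgs16, Itgae plus Cd8a cells made up 16.5% and 16.8% of cells with 0 UMIs but 2.22% and 2.14% of those with 2 or more. Over those steps Il10 cells went from 3.69% and 4.31% to 9.85% and 11.1%, and Xcl1 cells from 3.54% and 3.80% to 9.36% and 11.3%. Cells with 2 or more Rgs16 UMIs numbered 406 and 468, and cells with 5 or more Rgs1 UMIs 986 and 1429.

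**Figure D3:**
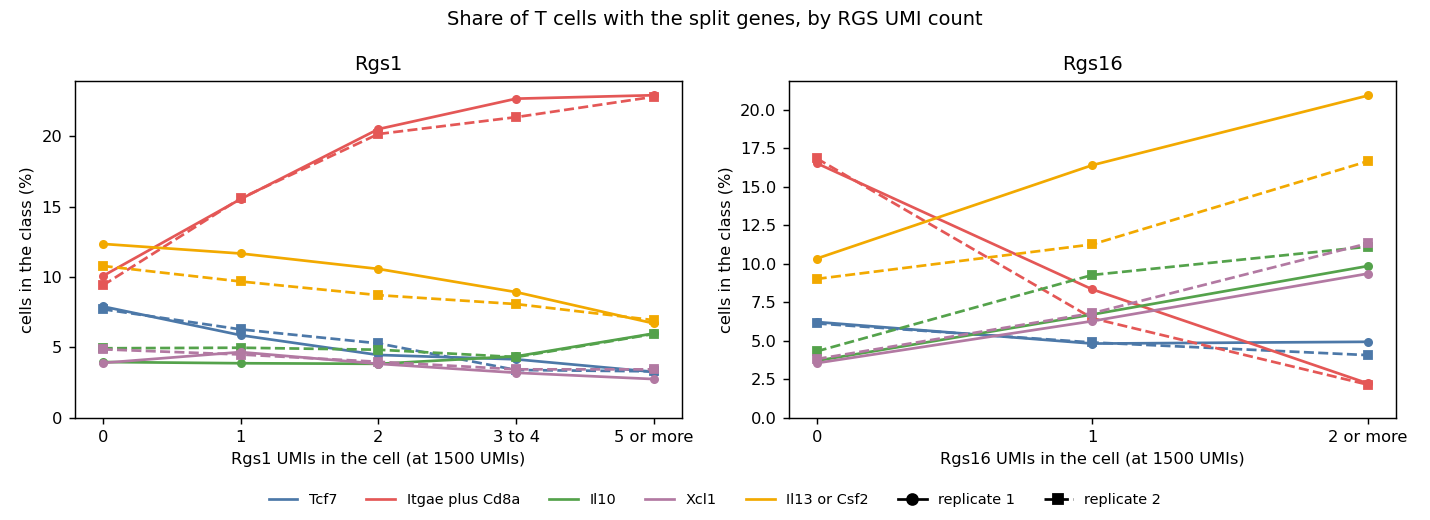
Share of T cells in each class (vertical axis, %) by the number of Rgs1 (left) or Rgs16 (right) UMIs in the cell at 1500 UMIs; solid lines are replicate 1 and dashed lines replicate 2. The Itgae plus Cd8a share rises from about 10.1% to 22.9% with Rgs1 UMIs in replicate 1 and falls from 16.5% to 2.22% with Rgs16 UMIs.

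T cells formed 12 clusters when grouped without any RGS gene. Levels by cluster are a description with no test. Rgs16 had the widest range of the mean, 21.02-fold, from 290 and 244 CPM in the cluster led by Il10 and Ccl4 to 14.1 and 11.3 in the one led by Cd8a and Cela1. The cluster led by Csf2 and Il13 had 239 and 257 CPM, the highest in replicate 2. Proliferating cells led by Hist1h2ap (13.1 and 19.7) and interferon response cells led by Ifit1 (18.5 and 26.7) were also low in Rgs16, while proliferating cells led by Cenpf had 111 and 132. Rgs2 had a 13.1-fold range, highest in the Csf2 cluster (154 and 149 CPM), then in those led by Tcrg-C1 and Dusp5 (98.8 and 88.6) and by Hspa1a and Hspa1b, which encode heat shock proteins (97.2 and 93.2), and lowest in the Cd8a cluster (9.3 and 13.7).

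Rgs1 ranged 3.86-fold, from 1910 and 1961 CPM in the cluster led by Xcl1 and Nr4a2 to 486 and 516 in the one led by Tcf7 and Slamf6. Rgs10 ranged 4.04-fold, from 155 and 162 CPM in the Xcl1 cluster to 39.6 and 39.1 in the Cenpf cluster, with the Tcf7 cluster next at 48.0 and 43.1. Rgs3 had the narrowest range, 2.09-fold, from 112 and 122 CPM in the Tcf7 cluster to 54.3 and 57.0 in the Csf2 cluster. The Tcf7 cluster was the lowest in Rgs1 in both replicates and the highest in Rgs3 on the mean, with the Il10 cluster above it in replicate 1 (117 CPM). The Xcl1 cluster was the highest in Rgs1, although cells with an Xcl1 UMI had less Rgs1. Most cells with an Xcl1 UMI lay outside the Xcl1 cluster, 505 of 583 in replicate 1 and 445 of 628 in replicate 2. Within the Xcl1 cluster, cells with an Xcl1 UMI had 1026 and 1505 CPM of Rgs1 against 1958 and 2014 in cells without. At a finer clustering (resolution 1.5 in place of 1), a cluster led by Xcl1 and Irf8 had 364 and 409 CPM of Rgs1. The highest there was led by Areg and Nr4a2 (2089 and 2341). At resolution 0.6 the cluster led by Tcrg-C1 and Xcl1 was the highest (1832 and 1879).

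**Figure D4:**
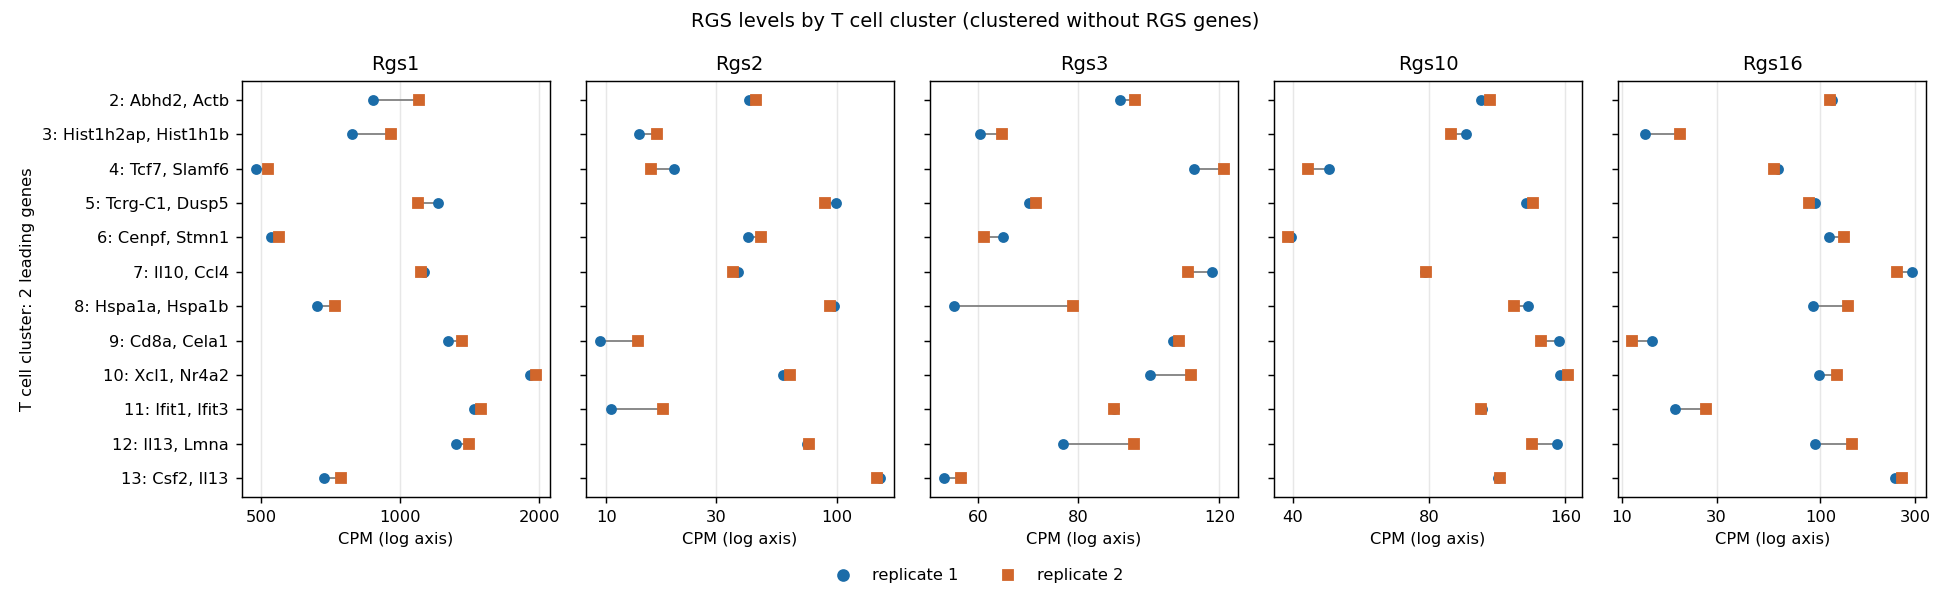
Level of each RGS gene (horizontal log axis, CPM) in the 12 T cell clusters, which are listed with their number and 2 leading genes. Circles and squares are replicates 1 and 2. Rgs16 spans 21.02-fold and Rgs3 2.09-fold, and the replicates lie near each other beside the range over clusters.

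Some differences between classes were smaller among cells of the same clusters. The 7 split genes were not left out of the clustering, and some of the clusters were led by them. In such a cluster, cells without a UMI of the gene may still be in its state. A smaller weighted ratio therefore cannot separate the class from its cluster. When the cells without a split gene were weighted to the clusters of the cells with it, Rgs2 in Il13 or Csf2 cells went from log2 ratios of 0.77 and 0.90 to -0.12 and -0.04. Rgs2 with Itgae plus Cd8a went from -1.26 and -1.10 to -0.07 and -0.29, Rgs10 there from 0.52 and 0.40 to 0.12 and 0.05, and Rgs1 there from 0.52 and 0.54 to 0.07 and 0.10. Rgs10 with Il10 went from -0.65 and -0.76 to -0.40 and -0.49. Rgs16 with Xcl1 went from 1.19 and 1.26 to 1.097 and 1.18, and with Tcf7 from -0.42 and -0.50 to -0.45 and -0.57. With Il10 it went from 1.13 and 1.03 to 0.38 and 0.26, with Il13 or Csf2 from 0.92 and 0.78 to 0.47 and 0.38, and with Itgae plus Cd8a from -1.78 and -2.08 to -0.59 and -0.67. In the Xcl1 cluster itself, cells with an Xcl1 UMI had 367.5 and 309.7 CPM of Rgs16 against 75.2 and 98.1 in cells without, and in the Csf2 cluster 566 and 621 against 199 and 225. Rgs1 with Xcl1 kept its ratio (-0.23 and -0.22 before, -0.23 and -0.29 after), and with Tcf7 went from -0.55 and -0.56 to -0.29 and -0.28. These ratios carry no test.

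**Figure D5:**
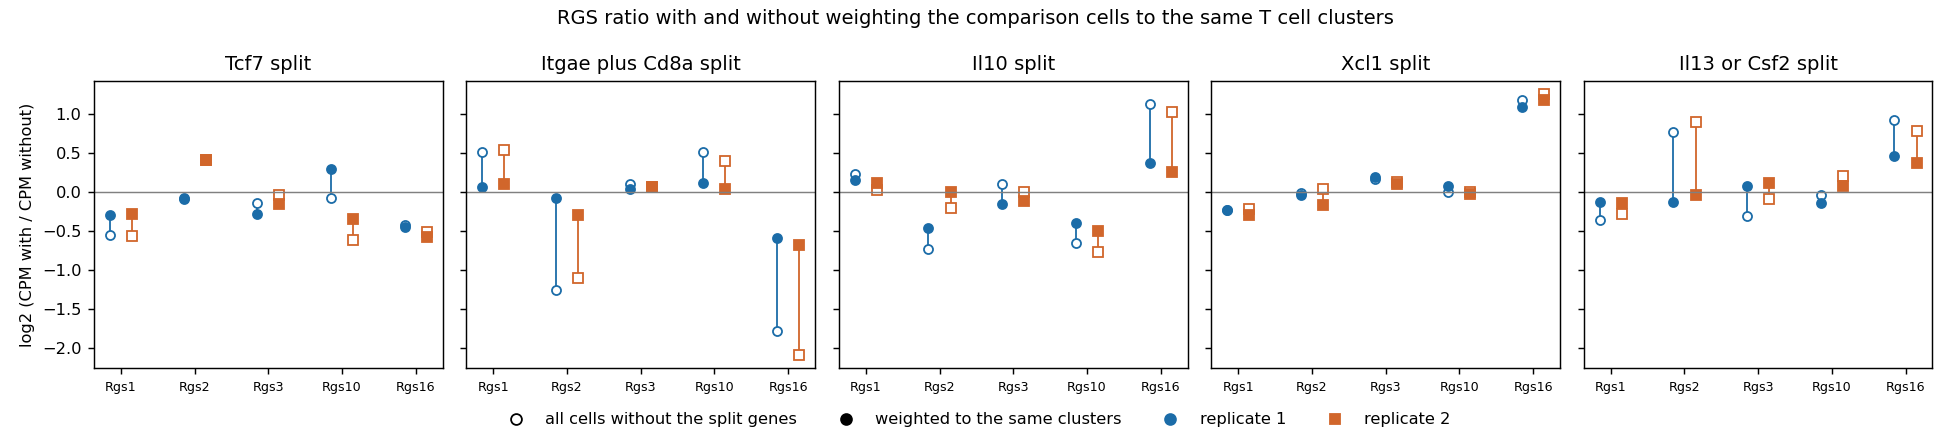
Log2 ratio (vertical axis) of each RGS gene between cells with and without the split genes, per replicate. Open marks use all cells without the genes, and filled marks weight those cells to the same T cell clusters. Rgs16 in the Xcl1 split hardly moves, from 1.19 to 1.097 and from 1.26 to 1.18, while Rgs2 in the Il13 or Csf2 split moves to near 0.

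Genes with the pattern most like each member were ranked over these 12 clusters by Pearson correlation of log2 (CPM + 10) among 3673 genes, keeping the smaller value of the 2 replicates. Clusters share libraries and depth differences, so the values describe likeness only. Nearest to Rgs1 were Lag3, an inhibitory receptor (0.88), Nedd9 (0.88) and Pde3b, a phosphodiesterase (0.88), followed by Frmd4b and Plcxd2. Nearest to Rgs2 were the transcription factor Klf4 (0.97), Emp1 (0.96) and Icos, a co-stimulatory receptor (0.95), followed by Uhrf2 and the hexokinase Hk2. Rgs16 lay nearest to the kinase Sik1 (0.91), the transcription factor Irf8 (0.89) and the kinase Map3k8 (0.89), followed by Slc38a1 and Cd2. Rgs10 lay nearest to Frmd4b (0.91) and the receptor Gpr171 (0.88), followed by Usp3, Ahr and Anxa7, and Rgs3 to Gtf2i (0.90) and Arhgap9 (0.89), followed by the kinase Lck, Son and Ryr1. Among members, Rgs2 and Rgs16 (0.76 and 0.79 in the replicates) and Rgs1 and Rgs10 (0.72 and 0.77) were most alike, and Rgs2 and Rgs3 least (-0.53 and -0.45).

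The receptors that RGS proteins act on also differed between classes. Of 12 chemokine receptors tested with Itgae plus Cd8a, 1 rose and 10 fell, with a median log2 fold change of -1.97 against -0.01 over all genes. Ccr9, the receptor for the gut chemokine CCL25, rose (228 and 260 CPM against 82.4 and 91.4; 1.51 ± 0.055), and Ccr2, a receptor for inflammatory chemokines, fell (33.5 and 30.5 against 190 and 214; -2.63 ± 0.082). Of 25 lipid and small-molecule receptors, 5 rose and 10 fell there, among them Gpr55 (1.93 ± 0.095) and Gpr34 (1.52 ± 0.074) upwards and Gpr183, the oxysterol receptor, downwards (-2.23 ± 0.094). All 9 tissue egress genes tested fell, such as Klf2 (-1.77 ± 0.065). In Tcf7 cells 8 of the 9 egress genes rose and 0 fell, with Klf2 at 1.31 ± 0.053, and 5 of 13 chemokine receptors rose, Cxcr3 at 1.03 ± 0.080, while 4 fell. These counts stand beside 33.6% of all genes called with Itgae plus Cd8a and 8.76% with Tcf7, in either direction.

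With Il10, 2 of 13 chemokine receptors rose and 3 fell, among them Ccr2 (1.04 ± 0.070) upwards and Cxcr6 downwards (-0.83 ± 0.060). In Il13 or Csf2 cells 6 of 13 rose and 4 fell, and 9 of 26 lipid and small-molecule receptors rose and 3 fell, with Gpr183 at 1.12 ± 0.071. In the Xcl1 split 1 of 13 chemokine receptors rose and 2 fell, Ccr2 at -0.56 ± 0.10 and Ccr9 at -0.52 ± 0.12. The classes with most Rgs16, Il10 and Xcl1, thus changed in opposite directions for Ccr2. Of all genes, 6.75% were called with Il10, 18.1% with Il13 or Csf2 and 1.98% with Xcl1.

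Among G protein subunits, Gna13, a G alpha gene, fell with Itgae plus Cd8a (-0.55 ± 0.057) and rose in Il13 or Csf2 cells (0.78 ± 0.065), the same directions as Rgs2 and Rgs16. The gamma subunit gene Gngt2 rose with Itgae plus Cd8a (1.38 ± 0.062) and fell with Tcf7 (-1.005 ± 0.12) and with Il13 or Csf2 (-0.82 ± 0.10), the same directions as Rgs1. Of 8 G alpha genes tested, 3 fell and 0 rose with Itgae plus Cd8a and 3 rose and 0 fell with Il13 or Csf2. Of 14 genes of receptor desensitisation and G protein exchange, 5 rose with Itgae plus Cd8a, such as the arrestin Arrb2 (0.40 ± 0.060) and the kinase Grk6 (0.37 ± 0.059), and 3 fell with Il13 or Csf2. These counts stand beside 33.6% of all genes called with Itgae plus Cd8a and 18.1% with Il13 or Csf2, and the shares with Itgae plus Cd8a lie near that background. Of 5 other RGS genes tested, Rgs14 (0.40 ± 0.13) and Rgs19 (0.32 ± 0.11) rose with Tcf7, where Rgs1 and Rgs16 fell, and Rgs19 fell with Itgae plus Cd8a (-0.45 ± 0.092). With Tcf7 8.76% of all genes were called. Of the genes of the cAMP, PI3K-gamma and phospholipase C arm, 4 of 20 tested rose and 4 fell with Il13 or Csf2 (median -0.17) and 7 of 19 rose and 6 fell with Itgae plus Cd8a (median -0.14). There Crem (0.75 ± 0.10) and the phosphodiesterase Pde4b (0.58 ± 0.10) rose with Il13 or Csf2, while Prkacb, a catalytic subunit of protein kinase A, fell there (-0.38 ± 0.097) and rose with Itgae plus Cd8a (0.84 ± 0.068), where Dock2 fell (-0.46 ± 0.065).

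Immediate early and heat shock genes, which respond to receptor stimulation and to stress including tissue digestion, moved with the classes as well. Of 22 tested, 20 fell and 0 rose with Itgae plus Cd8a, a median of -0.74, and 19 rose and 0 fell with Il13 or Csf2, a median of 0.58; Atf3 changed by -1.76 ± 0.087 and 2.09 ± 0.066. With Il10 10 rose and 5 fell, with Tcf7 9 rose and 0 fell, and with Xcl1 7 rose and 0 fell. Of all genes, 33.6% were called with Itgae plus Cd8a, 18.1% with Il13 or Csf2, 6.75% with Il10, 8.76% with Tcf7 and 1.98% with Xcl1. Over clusters the summed level of the 22 genes was highest in the Tcrg-C1 and Dusp5 cluster (16312 and 16409 CPM) and the Csf2 cluster (16035 and 15366). It was lowest in the Hist1h2ap cluster (3928 and 4328) and the Cd8a cluster (4897 and 5224). The part of stimulation or handling in the Rgs2 and Rgs16 levels was not tested.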

How the data were processed

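The deposited files hold raw UMI counts per gene and barcode, made by the authors with Cell Ranger 3.1.0 on mm10, per the submitters' processing notes; read settings are not given in the sources used here. All 6794880 barcodes per library were deposited, with totals of 89427990 and 108082997 UMIs in replicates 1 and 2, which sets the precision of low genes. Cells needed at least 1000 UMIs, 500 genes and at most 10% mitochondrial UMIs. They were clustered without RGS genes (scanpy 1.11.5, igraph 0.11.9, 30 components, 15 neighbours, resolution 1), and clusters with 3 or more fixed markers of another cell type among their 10 leading genes were removed. Scaled values were chosen over unscaled ones after seeing leading genes but before any test on the members; the unscaled version was kept as an alternative. A doublet caller marked 0 cells in both replicates and so did not work, and the 8% highest doublet scores were left out in an alternative. Cells were thinned to 1500 UMIs, split by a UMI of the state genes, and summed per replicate and class. edgeR 4.0.16 (R 4.3.3, limma 3.58.1) gave the quasi-likelihood tests with TMM scaling, filterByExpr and the replicate as a block, since both classes of a number come from the same library. The 7 split genes were left out of every fit. DESeq2 1.42.0 was an alternative. Other values used Python 3.11.15, numpy 2.4.6 and scipy 1.17.1. Scripts were tested on simulated data. Per-replicate folds are ratios of scaled counts between the classes of 1 library, with scaling factors from both libraries and no fit or test. The members and gene lists were chosen with earlier results of these data known. Named genes are the members, per list and split up to 3 called genes with the largest fold that reach 50 CPM in either class, and the 5 genes most like each member.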

Additional observations from a re-analysis of the deposited data

How the results depend on the processing

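Without the replicate block, the genes called fell from 974 to 255 for Tcf7, from 3730 to 2265 for Itgae plus Cd8a, from 759 to 268 for Il10, from 224 to 18 for Xcl1 and from 2041 to 966 for Il13 or Csf2. In the same order, DESeq2 called 270, 1223, 233, 41 and 620, a depth of 1000 UMIs 424, 2254, 356, 140 and 1166, no thinning 3064, 7444, 2505, 1639 and 3452, and leaving out the clusters led by the split's own genes (chosen after seeing the data) 576, 1749, 139, 147 and 489. Tcf7 against cells with none of the 7 genes gave 456, and Xcl1 gave 108 without proliferating clusters and 75 without the highest doublet scores. Unthinned sums keep a depth difference between classes, and a depth of 1000 UMIs or fewer cells leave fewer counts; for the others the cause was not tested. Of the members, 1 was called for Tcf7 with DESeq2 (2.43% of genes) and at 1000 UMIs (3.86%). Without the led clusters, 1 was called for Il10 (1.27%) and 1 for Il13 or Csf2 (4.43%). For Xcl1, 1 was called with DESeq2 (0.36%), without the replicate block (0.16%) and without proliferating clusters (0.97%). The same held for Xcl1 without the highest doublet scores (0.67%) and against none of the 7 genes (2.51%). Between exclusive states 32 member tests passed, where 3.7% to 37.6% of all genes were called per contrast. Without the replicate block 26 passed, beside 1.28% to 30.8% of genes, and without thinning 40, the most, beside 7.79% to 55.2%. Between these exclusive-state fits the member count thus moved along with the share of all genes called. In the splits it did not always do so. For Xcl1 the share was higher against none of the 7 genes (2.51%) than in the main fit (1.98%), yet fewer members were called.

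Rgs16 passed in each split except Tcf7 under every alternative with a test, and without the led clusters its log2 fold change was -1.30 with Itgae plus Cd8a, 0.74 with Il10, 1.05 with Xcl1 and 0.61 with Il13 or Csf2. Rgs1 with Xcl1 turned to 0.020 against cells with none of the 7 genes, and Rgs2 between Il10 and Itgae plus Cd8a to -0.12 at 1000 UMIs. Over all member fold changes and alternatives in the splits, 26 lost the call, 8 gained it and 1 called value turned. Another 410 were counted as unchanged, and 22 of these changed sign with neither value called. The 410 include the folds of each replicate alone, which have no p-value and so no side of the threshold. Those were counted as unchanged when they lay within the SD of the 2 folds from the main value. Between exclusive states, where no replicate was taken alone, the counts in that order were 24, 13, 1, 312 and 8. The gained calls were Rgs2 in Tcf7 and Il10 as given above, Rgs3 without thinning in Tcf7 (-0.11) and in Il13 or Csf2 (-0.20), and Rgs10 in Il13 or Csf2 against none of the 7 genes (0.35). The range over clusters at resolutions 0.6 and 1.5 was 3.66 and 5.81 for Rgs1, 12.5 and 13.7 for Rgs2, 1.86 and 2.93 for Rgs3, 4.36 and 6.89 for Rgs10 and 18.8 and 30.2 for Rgs16. Genes called higher and lower numbered 440 and 319 for Il10 (DESeq2: 166 and 67), 147 and 77 for Xcl1 (DESeq2: 32 and 9, no replicate block: 16 and 2, without the highest doublet scores: 58 and 17) and 1227 and 814 for Il13 or Csf2 (DESeq2: 461 and 159, no replicate block: 683 and 283, without the led clusters: 361 and 128). Without the low-count filter the median log2 fold change over all genes was -0.11 to -0.22, against -0.021 to 0.0041 with it. Depth limits Rgs2 most, with a UMI in 6.47% and 6.79% of cells.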
